A study of Rattus norvegicus with 9 samples.

Results

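Gnrh1, Tac3 and Npvf encode peptide precursors of the hypothalamic control of reproduction, and 4 of the 31042 probe sets tested carried the single symbol of one of these 3 genes in the platform's annotation. Gnrh1 had 2 probe sets (1387535_at and 1370417_at), Tac3 had 1 (1387138_at) and Npvf had 1 (1370038_at). Expression was measured in the hypothalamus of 9 male rats aged 13 weeks, on 1 Affymetrix array each, to ask how the seasonings of an instant noodle diet bear on hypothalamic transcripts. The noodle diet was eaten by 4 rats (numbers 1, 4, 7 and 13) and held 30% instant noodles by weight, with 26% of its energy from fat. The 5 control rats (numbers 2, 5, 8, 11 and 14) ate the same diet without the seasonings, so both groups ate a noodle diet of medium fat content. Feeding was paired at about 60 g of diet per kg body weight per day under a 12 hour light cycle, and the labels state its length both as 30 days and as 4 weeks. Strain, the borders of the dissected tissue and the time of day were not given in the sources used here. Nothing beyond the sample numbers says that the arrays come from separate animals, and p-values measure the spread between these 9 samples.

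Gnrh1 encodes gonadotropin-releasing hormone, a decapeptide made by scattered neurones of the preoptic region whose axons reach the median eminence, where its pulses drive the pituitary to secrete luteinizing hormone and follicle-stimulating hormone. Tac3, called Tac2 in the mouse, encodes neurokinin B, a tachykinin made by arcuate neurones that also make kisspeptin and dynorphin and are thought to set the rhythm of those pulses. Npvf encodes the RF-amide related peptides of dorsomedial neurones, the mammalian counterpart of avian gonadotropin-inhibitory hormone, which can restrain gonadotropin-releasing hormone neurones and gonadotropin output. In extracts of a whole tissue, fewer cells of a type and less RNA per cell cannot be told apart.

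All values are the log2 values deposited by the authors, and differences are noodle diet minus control diet in log2 units. The deposited values ran from 5.13 to 13.7, the array medians lay between 6.777 and 6.785, and correlations between arrays were 0.997 to 0.999. Most probe sets hardly moved between rats. A range below 0.01 log2 units over the arrays was found for 29759 of them (95.9%), called compressed here, and one above 0.05 for 1223 (3.94%), called variable. In a compressed probe set a difference cannot be read as a change of the transcript. Probe sets for peptide genes of hypothalamic neurones, the widest of each gene, stood at different deposited values. Such values do not rank the genes by amount of transcript, since different probe sets need not give the same signal for the same amount. Over the rats Hcrt ran from 8.75 to 10.05, Pmch from 11.85 to 12.37, Avp from 10.49 to 11.84 and Oxt from 8.66 to 10.52. Those of Pomc, Crh and Ghrh were compressed at 6.26, 6.37 and 6.93, and that of Penk was compressed at 10.77.

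For Gnrh1, the variable probe set 1387535_at was the widest of the 4 between animals. It stood at 5.99 in noodle-diet rat 1, 6.16 in rat 13, 6.40 in rat 4 and 6.81 in rat 7. The control rats measured 6.03 in rat 5, 6.13 in rat 11, 6.38 in rat 14, 6.40 in rat 8 and 6.42 in rat 2. Both the lowest and the highest rat thus ate the noodle diet, and 5 of the 5 controls lay inside the noodle-diet range. The mean was 6.34 ± 0.36 (SD, n = 4) on the noodle diet and 6.27 ± 0.18 (SD, n = 5) on the control diet. Both means lay below the array medians (6.777 to 6.785), and the lowest rats stood near the 6.04 of the other Gnrh1 probe set. Without detection calls, whether this signal stands above background was not tested. The difference of 0.073 (SE 0.17, 95% interval -0.33 to 0.47) did not pass limma's test (p = 0.684, adjusted p = 1; exact 2-sided permutation p = 0.722), and was 0.27 of the pooled SD within diets. Over the 126 splits of the rats the smallest permutation p this design can give is 0.00794. On the deposited scale the interval spans ratios of 0.798 to 1.39, so differences of that size in either direction remain compatible with these values. Without noodle-diet rat 7 the difference turned to -0.085.

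The other Gnrh1 probe set, 1370417_at, was compressed. It lay between 6.0421 (control rat 5) and 6.0430 (noodle-diet rat 13), a range of 0.000928 against 0.823 for 1387535_at, which is 887 times as wide. The 2 probe sets of this gene did not follow each other over the 9 rats (Pearson r = 0.03, Spearman rho = 0.15, given as a description, since both were read from the same RNA). The diet difference of 1370417_at was 0.00011 (SE 0.00018, limma adjusted p = 1; exact 2-sided permutation p = 0.587), and its sign changed to -0.00011 with quantile normalization. Its level carries no readable information on animals or diets, so what follows on Gnrh1 rests on 1387535_at alone.

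**Figure D1:**
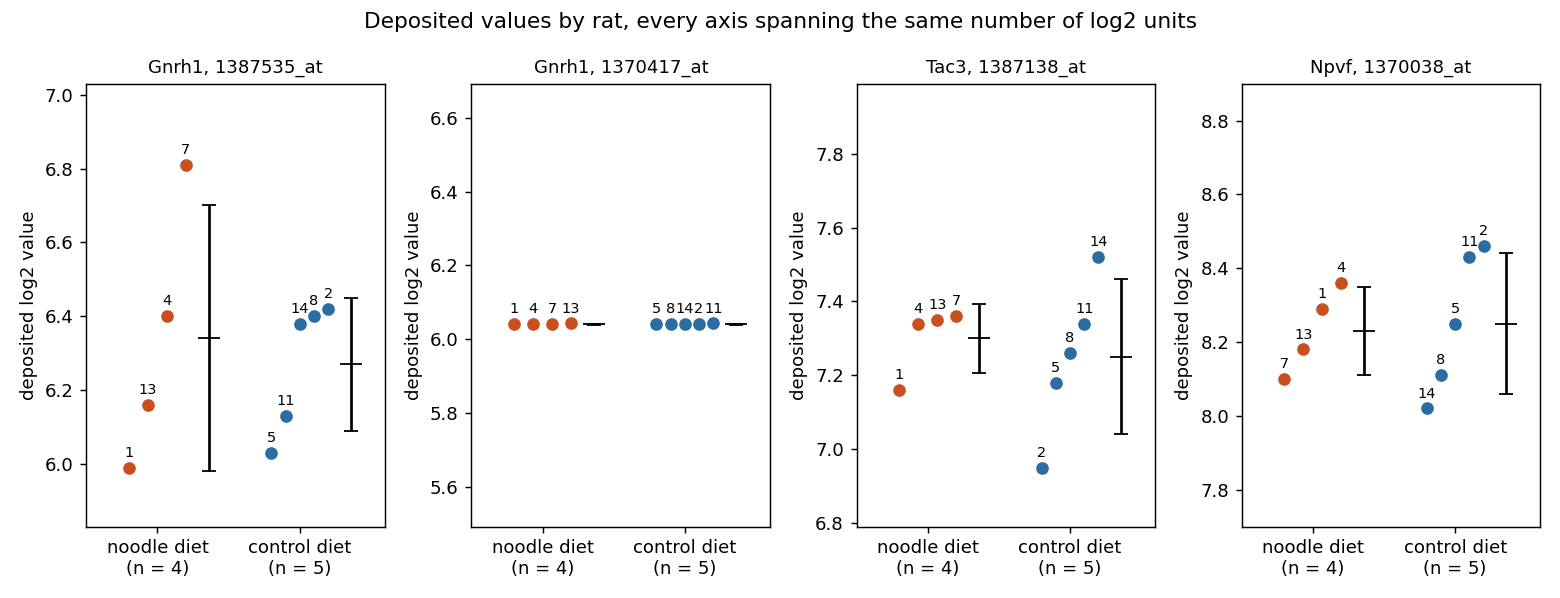
Deposited log2 values of the 4 probe sets in each rat, by diet, with rat numbers beside the points and mean ± SD (n = 4 and n = 5) as black bars; each vertical axis spans the same number of log2 units. Gnrh1 1387535_at runs from 5.99 to 6.81 on the noodle diet alone, Gnrh1 1370417_at is flat at 6.04, and in every panel the diets overlap.

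Tac3 was measured by a variable probe set whose widest spread was among the controls. The noodle-diet rats measured 7.16 (rat 1), 7.34 (rat 4), 7.35 (rat 13) and 7.36 (rat 7), so that 3 of them lay within a few hundredths of each other and rat 1 lay below. The control rats measured 6.95 (rat 2), 7.18 (rat 5), 7.26 (rat 8), 7.34 (rat 11) and 7.52 (rat 14). Both extremes of this gene were control rats, and 4 of the 4 noodle-diet rats lay inside the control range. The means were 7.30 ± 0.093 (SD, n = 4) on the noodle diet and 7.25 ± 0.21 (SD, n = 5) on the control diet. The difference of 0.055 (SE 0.11, 95% interval -0.19 to 0.30) did not pass by limma (p = 0.626, adjusted p = 1), nor by exact 2-sided permutation (p = 0.635). It corresponds to a ratio of 1.04 with an interval of 0.874 to 1.23. Leaving out control rat 2, the lowest, turned it to -0.020, and leaving out control rat 14, the highest, raised it to 0.12.

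Npvf had the narrowest range of the 3 variable probe sets. Its noodle-diet values were 8.10 (rat 7), 8.18 (rat 13), 8.29 (rat 1) and 8.36 (rat 4). Its control values were 8.02 (rat 14), 8.11 (rat 8), 8.25 (rat 5), 8.43 (rat 11) and 8.46 (rat 2). The control rats again held both extremes, and 4 of the 4 noodle-diet rats lay between them. The means were 8.23 ± 0.12 (SD, n = 4) and 8.25 ± 0.19 (SD, n = 5), a difference of -0.022 (SE 0.10, 95% interval -0.26 to 0.22; limma p = 0.836, adjusted p = 1; exact 2-sided permutation p = 0.825). The ratio was 0.985 with an interval of 0.833 to 1.16. The sign depended on single animals, with 0.022 without noodle-diet rat 7, 0.028 without control rat 2 and 0.022 without control rat 11.

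Of the 4 probe sets, 0 had an adjusted p under 0.05 by limma, as did 0 of all 31042 (0%). At an unadjusted p under 0.05 there were 0 of 4, against 2.29% of all probe sets and 0.899% of the variable ones. The first share depended on the scaling, with 712 probe sets as deposited and 16 once the arrays were set to a common median. Groups that did not overlap were found in 0 of 4, against 0.567% of all probe sets and 0.0818% of the variable ones. The noodle-diet mean was the higher one in 3 of 4, where 48% of all probe sets and 51.9% of the variable ones had it higher. None of these counts set the 3 genes apart from the background.

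**Figure D2:**
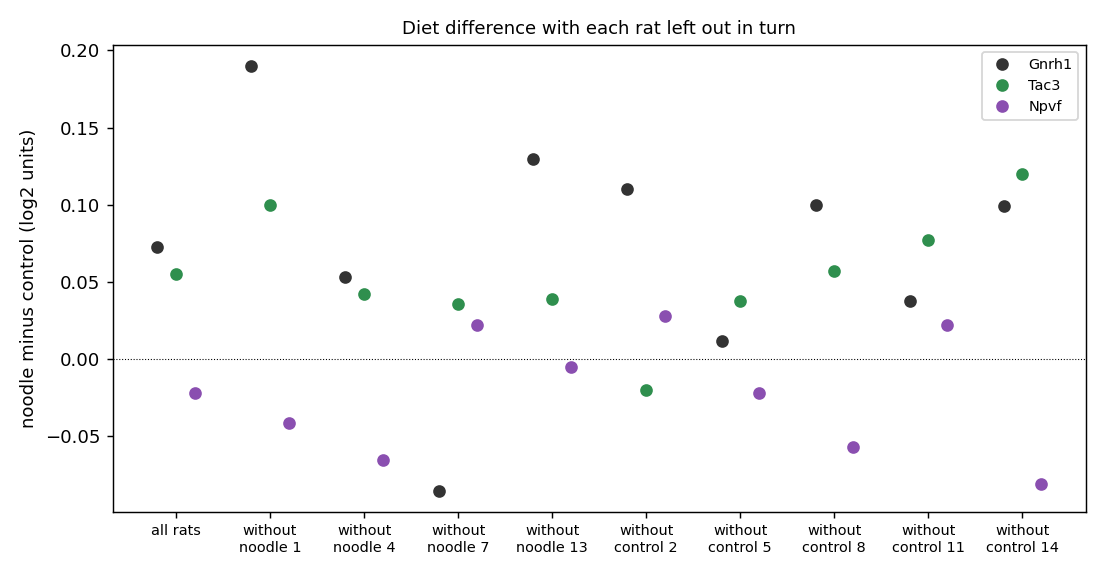
Noodle-diet minus control difference of Gnrh1 (1387535_at), Tac3 and Npvf in log2 units (vertical axis) with all 9 rats and with each rat left out in turn (horizontal axis). The points cross zero for Gnrh1 without noodle-diet rat 7 (-0.085), for Tac3 without control rat 2 (-0.020) and for Npvf without noodle-diet rat 7 or control rats 2 or 11.

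The spread between rats was large beside the diet differences in the 3 variable probe sets. Across the 9 rats Gnrh1 spanned 0.823, Tac3 0.568 and Npvf 0.436 log2 units, which are ratios of 1.77, 1.48 and 1.35 between the highest and the lowest rat. The range of Gnrh1 was wider than that of 81.9% of the variable probe sets, that of Tac3 wider than 62.5% and that of Npvf wider than 44.9%. Within diets the pooled SD was 0.27 for Gnrh1, 0.17 for Tac3 and 0.16 for Npvf. The larger SD was on the noodle diet for Gnrh1 (2.0 times the smaller) and on the control diet for Tac3 (2.24 times) and Npvf (1.66 times). The mean absolute deviation from the diet median was 0.265 against 0.131 for Gnrh1, 0.0505 against 0.144 for Tac3 and 0.0924 against 0.150 for Npvf, noodle diet first. By exact 2-sided permutation of these deviations, adjusted over the 3 genes by Benjamini-Hochberg, the adjusted p was 0.286 for each (p = 0.286, 0.278 and 0.270), and no difference in spread between diets was detectable. The larger noodle-diet deviation of Gnrh1 came down to 0.0053 above that of the controls without noodle-diet rat 7.

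The 3 genes did not rank the rats alike. Noodle-diet rat 7 was the highest for Gnrh1 and the second lowest for Npvf, and control rat 2 was the lowest for Tac3, the highest for Npvf and the second highest for Gnrh1. Control rat 14 was the highest for Tac3 and the lowest for Npvf. Over the 9 rats Tac3 and Npvf had a Pearson r of -0.63 (exact permutation p = 0.0622) and a Spearman rho of -0.70 (exact permutation p = 0.0433). Adjusted over the 3 pairs by Benjamini-Hochberg these gave 0.187 and 0.130, and the pair did not pass. Without control rats 2 and 14, the farthest from the Tac3 median, r was -0.02 (exact permutation p = 0.963). The relation thus depended on those animals, but they also held both extremes of Npvf, so some drop is built in. Without control rat 2 alone r was -0.43, and without control rat 14 alone it was -0.46. With diet means taken off r was -0.63 (exact permutation within diets, p = 0.138).

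Neither relation of Gnrh1 passed. With Tac3 its r was 0.20 (exact permutation p = 0.595, adjusted p = 0.595) and its rho 0.28 (exact permutation p = 0.463, adjusted p = 0.695). With Npvf its r was -0.34 (exact permutation p = 0.371, adjusted p = 0.557) and its rho -0.12 (exact permutation p = 0.776, adjusted p = 0.776). Without noodle-diet rats 1 and 7, the farthest from the Gnrh1 median, these coefficients were -0.06 and -0.10.

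**Figure D3:**
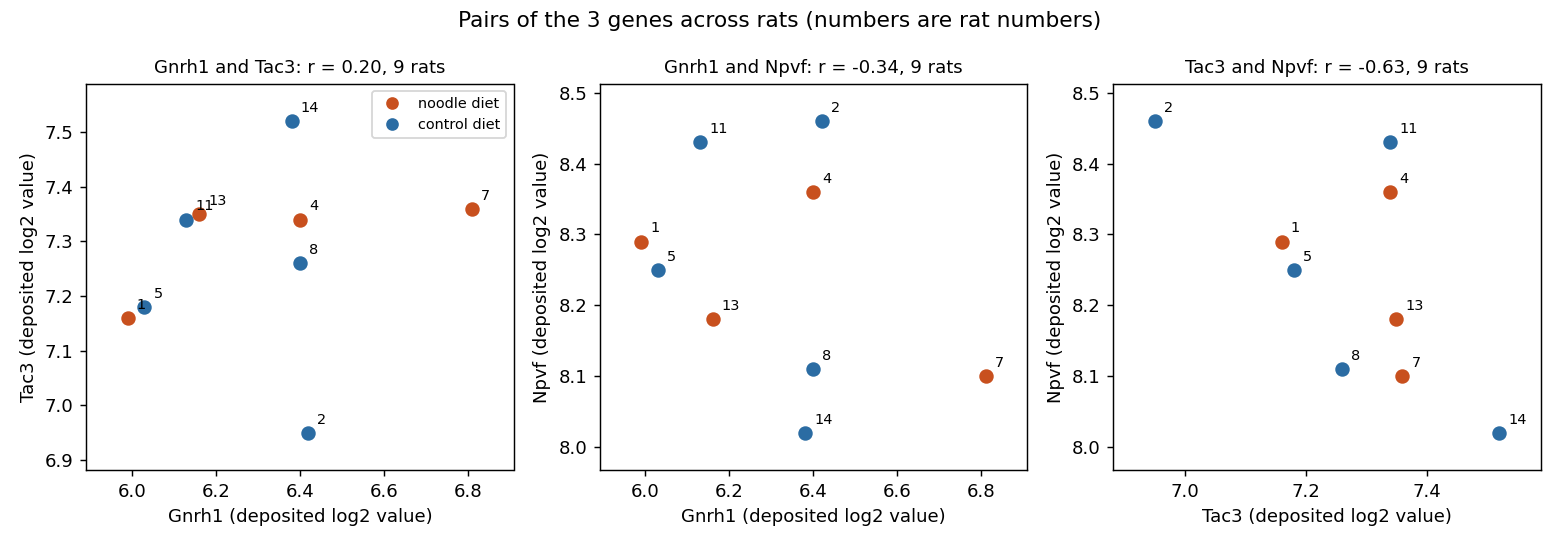
Each pair of the 3 genes across the 9 rats in deposited log2 values on both axes, with noodle-diet rats in orange, control rats in blue and rat numbers beside the points. In the panel of Tac3 and Npvf (r = -0.63) control rats 2 and 14 lie at opposite corners, and the other 7 rats show no trend (r = -0.02).

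The genes whose pattern over the 9 rats was most like each of the 3 were taken from 935 other variable probe sets with a single symbol, by Pearson r, as a description without a test. For Gnrh1 they were Prlr (r = 0.83), the prolactin receptor; Cplx1 (0.80) and Syn2 (0.79), proteins of synaptic vesicle release; Nts (0.78), the neurotensin precursor; and Acsm5 (0.77), an acyl-CoA synthetase. The most opposed were the small GTPase gene Rhoa (-0.84), Eya1 (-0.81) and Mgst1 (-0.79). Without noodle-diet rats 1 and 7 the coefficients of the 5 like genes fell to between 0.37 (Syn2 and Acsm5) and 0.65 (Prlr), and those of Rhoa, Eya1 and Mgst1 moved to -0.73, -0.43 and -0.51. These genes were picked for their r over all 9 rats, and leaving out those 2 rats narrows the range of Gnrh1. Some drop is therefore built in.

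Tac3 had closer neighbours. They were Bcat1 (r = 0.96), a branched-chain amino acid transaminase; Plekhb2 (0.94); Nefl (0.92), the light neurofilament chain; Elavl2 (0.91), a neuronal RNA-binding protein; and Hars1 (0.88), a histidyl-tRNA synthetase. The most opposed were Slc12a7 (-0.90), a potassium-chloride cotransporter; Col6a2 (-0.89), a collagen VI chain; and Scara3 (-0.88). Without control rats 2 and 14 Nefl kept 0.89 and Elavl2 0.96, and the 3 opposed genes lay between -0.91 and -0.89, while Hars1 fell to 0.48.

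Npvf was most like Clcn3 (r = 0.90), a chloride and proton exchanger of endosomes; Egr1 (0.89), an immediate early transcription factor; Msi2 (0.86), an RNA-binding protein; Dct (0.86), dopachrome tautomerase; and Dkk3 (0.82), a secreted protein of the dickkopf family. Opposed to it were Rab5a (-0.79), a GTPase of early endosomes, Abhd1 (-0.78) and Ppp3r1 (-0.78), the regulatory subunit of calcineurin. Without control rats 2 and 14 Clcn3, Egr1, Msi2 and Dct stood at 0.80 to 0.91, Dkk3 at 0.62, and the opposed genes nearer to zero, at -0.62 to -0.55. The gene lists named as nearest to Gnrh1, Tac3 and Npvf had no gene in common, but lists this short out of 935 probe sets would seldom share one.

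Markers of tissue that can be taken along with the hypothalamus were set beside the 3 genes, each list by a score per rat, the mean deviation of its variable members from their mean over the 9 rats. Tac3 ran against the meningeal fibroblast list, of which 7 of 7 measured genes were variable and 7 of 7 had a negative r with Tac3, from -0.78 (Col1a2) to -0.21 (Dcn). A negative r was also found for 5 of 5 variable oligodendrocyte, 5 of 5 microglia and 3 of 4 astrocyte genes. It was found for 0 of 3 variable paraventricular and supraoptic genes, and for 1 of 8 variable hypothalamic peptide genes that include those 3. Other neuronal peptide genes also ran against Tac3, with Vip at -0.76, Npy at -0.57 and Cartpt at -0.41. A negative r was therefore not confined to non-neuronal genes. The share over all variable genes is not given here, and the 7 genes, read from the same RNA, are not separate observations. The meningeal score lay between -0.48 and 0.78 on the noodle diet and between -0.64 and 0.58 on the control diet. Noodle-diet rat 1, the lowest of its diet for Tac3, had the highest score (0.78), and control rat 14, the highest for Tac3, had the lowest (-0.64). The r of Tac3 with this score was -0.70 (exact permutation p = 0.0273, adjusted p = 0.218; rho = -0.80, exact permutation p = 0.0138), and -0.81 without control rats 2 and 14. Without single rats r lay between -0.81 and -0.61, and the unadjusted exact permutation p was above 0.05 without noodle-diet rat 4 (0.0501), noodle-diet rat 7 (0.0532) or control rat 14 (0.0970).

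Against the ependymal and tanycyte score, of which Rarres2 and Vim were the variable members among 5 measured, Tac3 had r = -0.79 (exact permutation p = 0.00668, adjusted p = 0.160; rho = -0.80, exact permutation p = 0.0138), and -0.84 without the same 2 rats. That score ran from -0.26 to 0.47 on the noodle diet and from -0.53 to 0.38 on the control diet. Against the microglia score (5 variable of 7 measured genes, -0.17 to 0.039 on the noodle diet and -0.072 to 0.20 on the control diet) it had r = -0.60 (exact permutation p = 0.0840, adjusted p = 0.311; rho = -0.70, exact permutation p = 0.0433), and -0.85 without those rats. Without control rats 2 and 14 its r was also -0.83 with the astrocyte score and -0.71 with the oligodendrocyte score, which over all 9 rats were -0.47 and -0.20 (exact permutation p = 0.205 and 0.596, adjusted p = 0.461 and 0.752; rho = -0.57 and -0.43, exact permutation p = 0.121 and 0.25). In the neurone list 1 of 6 measured genes, Nefl, was variable. Of 24 relations between the 3 genes and 8 marker scores, 0 had an adjusted p under 0.05 (Benjamini-Hochberg over the 24), and 3 had an unadjusted p under 0.05. The part of adjoining or non-neuronal tissue in the spread of Tac3 was not tested.

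The third relation with an unadjusted p under 0.05 was that of Tac3 with the score of Hcrt and Pmch, neuropeptides of the lateral hypothalamus (r = 0.77, exact permutation p = 0.0265, adjusted p = 0.218; rho = 0.63, exact permutation p = 0.0760). It turned to -0.06 without control rats 2 and 14 and was 0.33 without control rat 2 alone, whose score of -0.64 was the lowest. Gnrh1 and Npvf had a weaker r with the meningeal score (-0.42 and 0.13; exact permutation p = 0.257 and 0.721, adjusted p = 0.515 and 0.815). Without the 2 rats farthest from the gene's own median, the meningeal r was 0.03 for Gnrh1 and -0.33 for Npvf. With the ependymal score the r of Gnrh1 and Npvf was -0.37 and 0.22 (exact permutation p = 0.340 and 0.561, adjusted p = 0.584 and 0.749). With the score of Avp, Oxt and Trh, paraventricular and supraoptic genes, r was 0.64 for Gnrh1 (exact permutation p = 0.0659, adjusted p = 0.311; rho = 0.57, exact permutation p = 0.121), and 0.34 without noodle-diet rats 1 and 7. For Tac3 it was 0.61 (exact permutation p = 0.0867, adjusted p = 0.311; rho = 0.62, exact permutation p = 0.0857), and 0.72 without control rats 2 and 14. For Npvf it was -0.56 (exact permutation p = 0.115, adjusted p = 0.344; rho = -0.55, exact permutation p = 0.133), and -0.49 without those rats. The arcuate score had 2 variable members, Npy and Prlr, whose r with Tac3 was -0.57 and 0.17. With that score r was -0.24 for Tac3 (exact permutation p = 0.527, adjusted p = 0.744), and 0.28 without control rats 2 and 14. It was 0.50 for Gnrh1 (exact permutation p = 0.177, adjusted p = 0.461) and -0.08 for Npvf (exact permutation p = 0.832, adjusted p = 0.868). Markers of the medial habenula (4 measured) and the thalamus (5 measured) had 0 variable members and give no score.

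**Figure D4:**
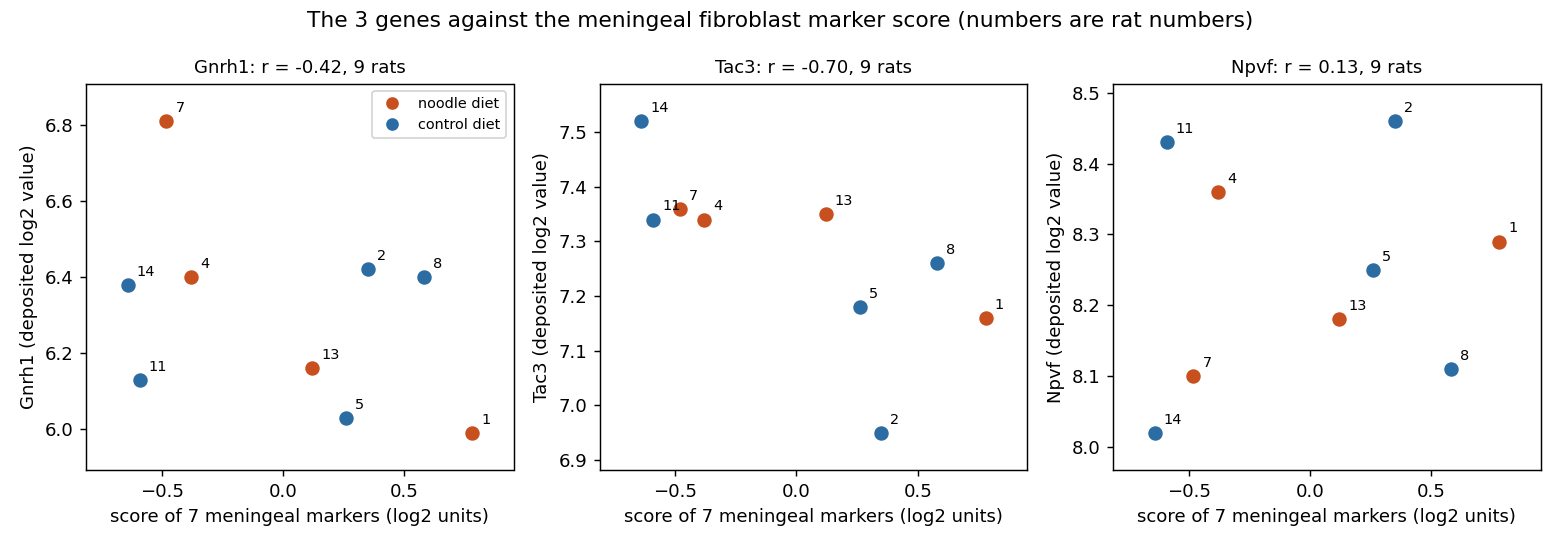
Deposited log2 values of Gnrh1 (1387535_at), Tac3 and Npvf (vertical axes) against the score of 7 meningeal fibroblast markers in log2 units (horizontal axes) for the 9 rats, with rat numbers beside the points. Tac3 is lower where the score is higher (r = -0.70), and the diets are mixed along the score in each panel.

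Other genes of the reproductive axis were read from lists of peptides, receptors, steroid receptors, developmental genes, processing enzymes and pituitary hormones, each gene by its probe set of widest range. By limma 0 genes of these 6 lists passed, and 1 of their 59 measured genes, Esr2, a compressed one, had an unadjusted p under 0.05, against 2.38% of the 14217 named genes. Among 9 measured peptides that act on gonadotropin-releasing hormone neurones, 3 were variable, with the noodle-diet mean the lower one in each, as it was in 397 of the 843 variable genes. Vip, the suprachiasmatic vasoactive intestinal peptide, measured 7.15 ± 0.86 (SD, n = 4) against 7.74 ± 0.90 (SD, n = 5), a difference of -0.59 with a 95% interval of -1.9 to 0.71. The metabolic peptides Npy and Cartpt differed by -0.033 and -0.025. The dynorphin precursor Pdyn, made by the same arcuate neurones as Tac3, was compressed, and the kisspeptin gene Kiss1 was not analysed here.

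All receptors of the list were compressed. These were 11 of 11 measured genes, among them Gnrhr, the receptor of gonadotropin-releasing hormone; Tacr3, that of neurokinin B; Npffr1, that of the Npvf peptides; Kiss1r, that of kisspeptin; and Oprk1, the kappa receptor of dynorphin. Their ranges over the 9 rats lay between 0.000284 and 0.00129 log2 units, too narrow to read a direction. The ligands Tac3 and Npvf could therefore be followed between rats in these values, but not their receptors.

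Of 7 measured genes for sex steroid and prolactin receptors and steroid enzymes, Prlr was the variable one, at 7.21 ± 0.15 (SD, n = 4) against 7.24 ± 0.12 (SD, n = 5) and with a difference of -0.028 (95% interval -0.23 to 0.17). The estrogen receptor genes Esr1 and Esr2 were compressed (limma adjusted p = 1 for each), and the progesterone receptor gene Pgr and the aromatase gene Cyp19a1 were compressed too. The 15 measured genes for development of gonadotropin-releasing hormone neurones and puberty, such as Otx2, Nkx2-1 and Prokr2, were all compressed.

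Among 9 measured genes of peptide processing and breakdown 2 were variable. Qpct, the glutaminyl cyclase that forms the pyroglutamate end of gonadotropin-releasing hormone and other peptides, measured 8.60 ± 0.12 (SD, n = 4) against 8.54 ± 0.19 (SD, n = 5), a difference of 0.059 (95% interval -0.19 to 0.30). Pgpep1, a pyroglutamyl peptidase, differed by 0.020 (95% interval -0.081 to 0.12). The convertase gene Pcsk2, the amidating enzyme gene Pam and the GnRH-degrading endopeptidase gene Thop1 were compressed.

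Of 8 measured pituitary genes 2 were variable. The gonadotropin beta chains Lhb and Fshb were among the compressed ones. Cga, the alpha chain shared by the gonadotropins and thyrotropin, and Tshb, the thyrotropin beta chain, were variable, at 11.56 ± 0.33 against 11.16 ± 0.63 and at 9.67 ± 0.89 against 8.86 ± 1.2 (SD, n = 4 and n = 5), with 95% intervals of -0.37 to 1.17 and -0.80 to 2.42. With single rats left out the difference of Cga ran from 0.23 to 0.58 and that of Tshb from 0.47 to 1.22.

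**Figure D5:**
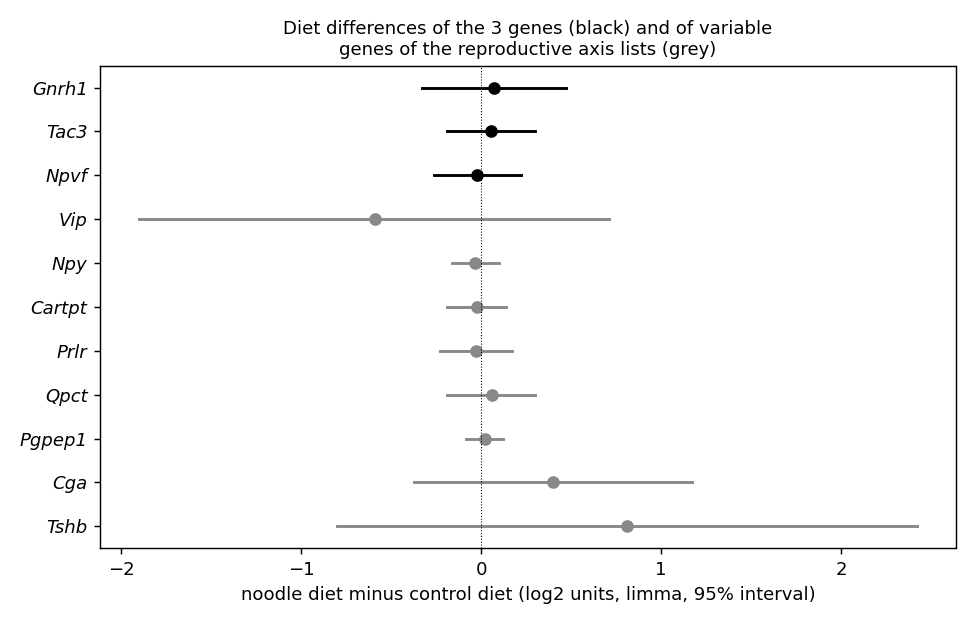
Noodle-diet minus control difference in log2 units (horizontal axis) with the 95% interval from limma, for Gnrh1 (1387535_at), Tac3 and Npvf in black and for the variable genes of the reproductive axis lists in grey. All 11 intervals include zero, and that of Npvf (-0.26 to 0.22) is narrower than that of Gnrh1 (-0.33 to 0.47).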

How the data were processed

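The authors deposited 1 table of log2 values for 31099 probe sets on 9 arrays. Their log2 scale was inferred from the range of the values. The summary of probes and the normalization between arrays are not stated in the labels. Per the labels' protocols, RNA was extracted with TRIzol, cleaned on a column and labelled with biotin from 100 ng. The number of arrays limits the precision, and no detection calls were used.

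Groups and rat numbers came from the sample titles. The 57 control probe sets were left out, and probe sets were named from the platform's annotation, whose gene numbers gave the same 3 symbols in the rat gene table (GRCr8). The whole table was fitted with limma 3.58.1 in R 4.3.3 (lmFit and a trended eBayes), with 2-sided p-values adjusted by Benjamini-Hochberg and a threshold of 0.05. The fit and the permutation tests were tested on simulated data. Permutations and correlations were computed with numpy 2.4.6.

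The 3 genes and the gene lists were chosen with earlier results of these data known. Named beside each gene were the 5 most like and 3 most opposed genes, and from 6 lists up to 4 variable members by lowest p. The alternatives were quantile normalization, a common array median, other variance models, array weights, filters on low means (20th percentile) and on range, averaged probe sets, a threshold of 0.10, other spread measures, diet means taken off, and leaving out rats.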

Additional observations from a re-analysis of the deposited data

Results flagged for a closer look

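In 86 groups tested (each diet for the probe sets, named genes and marker scores), 7 held 1 rat that stood apart. Chance flags about 1 group in 20, or 4.3 here. The groups are not independent, since many named genes were picked for following or opposing the 3 genes over these same rats. The 2 counts therefore cannot be weighed against each other.

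Tac3 stood at 7.16 in noodle-diet rat 1, with the other noodle-diet rats at 7.34 to 7.36. Bcat1, the gene most like Tac3, stood at 9.55 in that rat, with the others of its diet at 9.64 to 9.65. The score of paraventricular and supraoptic markers (Avp, Oxt and Trh) was -0.85 there, with the others at 0.25 to 0.38. The compressed Gnrh1 probe set stood at 6.0430 in noodle-diet rat 13, with the others of its diet at 6.0425.

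Rab5a and Ppp3r1, opposed to Npvf, stood at 8.43 and 8.42 in noodle-diet rat 4, with the others of its diet at 8.54 to 8.55 and 8.64 to 8.68. Vip stood at 6.15 in control rat 14, with the other controls at 8.01 to 8.30. Without that rat the diet difference of Vip was -0.99, against -0.59 with it (limma adjusted p = 1 in both fits), and without noodle-diet rat 7 it was -0.32.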

How the results depend on the processing

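No probe set of the whole table passed in any of the 18 alternatives to the diet comparison (0 in each, by limma), and the count at an unadjusted p under 0.05, 712 as deposited, depended on the scaling. Over all 31042 probe sets it ran from 16 with a common array median and 127 with quantile normalization to 1155 without control rat 14, and it was 7 in the fit of the 1223 variable ones. The differences of Gnrh1, Tac3 and Npvf kept their sign with quantile normalization, a common array median, both variance models, array weights, the filters and averaged probe sets, and none passed. With each rat left out in turn they ran from -0.085 to 0.19, from -0.020 to 0.12 and from -0.081 to 0.028. The sign turned for Gnrh1 without noodle-diet rat 7 (-0.085), for Tac3 without control rat 2 (-0.020) and for Npvf without noodle-diet rat 7 (0.022) or either of control rats 2 (0.028) and 11 (0.022). The compressed Gnrh1 probe set turned with quantile normalization (-0.00011) and without noodle-diet rat 13 (-1.3e-05), in a range up to 0.00020. The filter at the 20th percentile left it out.

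With single rats left out the difference in spread ran from 0.0053 to 0.19 for Gnrh1, from -0.14 to -0.053 for Tac3 and from -0.096 to -0.037 for Npvf. The Npvf value of -0.096, without control rat 5, had an unadjusted exact permutation p of 0.0286. The r of Gnrh1 and Tac3 ran from 0.08 to 0.51, that of Gnrh1 and Npvf from -0.51 to -0.12 and that of Tac3 and Npvf from -0.79 to -0.43. The last had an unadjusted exact permutation p under 0.05 without noodle-diet rat 4 (-0.72) or control rat 11 (-0.79). Without the 2 rats farthest from the median the r of Gnrh1 and Tac3 turned to -0.06, and that of Tac3 with the lateral hypothalamic score to -0.06.

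Among list genes the range with single rats left out crossed zero for Npy (-0.079 to 0.0064), Cartpt (-0.067 to 0.052), Prlr (-0.10 to 0.018), Qpct (-0.012 to 0.11) and Pgpep1 (-0.0073 to 0.047). The added alternatives for gene likeness and marker scores were chosen after seeing the data. No paired analysis was possible because the diets share no rat number and the labels, which call the feeding paired, name no partners. The cause of these changes was not tested.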

Other observations

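Other hypothalamic peptide genes were read beside the 3 reproductive ones, as a description over the same 9 rats. The 8 variable ones were Hcrt, Pmch, Avp, Oxt, Trh, Sst, Nts and Nmu. Tac3 and Npvf had r = -0.63 with each other, so their coefficients with these peptides are not independent. With Tac3 the coefficients ran from -0.03 (Sst) to 0.77 (Hcrt), with Npvf from -0.65 (Nts) to 0.28 (Nmu), and with Gnrh1 from -0.37 (Pmch) to 0.78 (Nts). Without control rats 2 and 14, that of Hcrt with Tac3 was 0.07 and that of Pmch -0.30, while the magnocellular gene Oxt stood at 0.77 and Nts at 0.67. With Npvf, Nts was then at -0.66 and Oxt at -0.50, while Nmu was at 0.77, and Hcrt and Pmch were within rounding of zero. All 8 peptides were read from the same RNA as the 3 genes.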
